A study of Homo sapiens with 8 samples.

Results

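Histones are the proteins around which nuclear DNA is wound: the core histones H2A, H2B, H3 and H4 form the nucleosome and the linker histone H1 binds the DNA between nucleosomes. The replication-dependent histones are encoded by clustered, near-identical gene copies that are transcribed in S phase, and most of their mRNAs end in a stem-loop and not in a poly(A) tail, whereas the variant or replacement histones are encoded by single genes whose polyadenylated mRNAs are made outside S phase too. H2AJ encodes H2A.J, a variant that differs little from the replication-dependent H2A proteins and is known to accumulate in senescent cells.

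The histone genes were taken as all probes whose transcript accession belongs to a gene with a histone name in RefSeq (older symbols beginning HIST1H, HIST2H, HIST3H, HIST4H, H1F, H2AF, H2BF or H3F). On the array these were 103 of 41000 probes, for 80 genes of the 17240 that could be given a current symbol: 77 probes for 65 replication-dependent genes and 26 probes for 15 variant genes. The class was read from the symbol only: genes with an older symbol beginning HIST are called replication-dependent here and the others variant. Of the 90 protein-coding histone genes of RefSeq, 79 had a probe, and 1 probe belonged to a pseudogene. The genes were proposed because H2AJ was seen to fall most in ErbB2-KD cells, so the ratios of ErbB2-KD are the values that the members were chosen by. They are given below as a description: counts of calls stand beside those over all probes, and nothing is read from them. The ratios of the other experiment were not the reason for that choice, which was made with earlier results of these data known.

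CAPAN-2 is an established human pancreatic adenocarcinoma cell line. ErbB2-KD1, ErbB2-KD2, ErbB2-KD3 and ErbB2-KD4 were the clones EV7, EV12, EV9 and EV18, obtained by stable transfection with a puromycin plasmid that encodes an ErbB2 shRNA, and each was hybridised with the RNA of pool NT, empty-vector clones. MUC4-KD1 to MUC4-KD4 were CAPAN-2 clones made with a retroviral MUC4 shRNA vector under G418 selection and were hybridised against Mock, clones with the empty retroviral vector, pooled according to the methods. Each experiment had 4 Agilent 2-colour arrays, with the RNA labelled as the knockdown in Cy5 on 2 of them and in Cy3 on the other 2. A stable clone carries its own history besides the shRNA, so p-values measure only the spread between these arrays. The methods give 4 clones for MUC4-KD, but the labels name none of them, and p-values would be too small if 2 arrays held the same clone. Values below are log2 ratios of the labelled knockdown over its labelled control, after background correction and loess normalization.

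A probe was tested where the software marked it as above background on every array of an experiment in at least 1 of the RNAs compared, and 89 histone probes of 69 genes met this in each experiment, 87 of them in both RNAs. The 14 others were the single probes of H1-6, H1-8, H2AC1, H2AC16, H2AC6, H2AB2, H2BC1, H2BW4P, H4C1, H4C16 and H4C7, the second probe of H2AC11, and the third probes of H2AJ and H2BC21. No spot was saturated, and 56.7% to 74.2% of all probes passed this mark in a channel. Among 10 epithelial markers 9 passed it in all 16 channels, including KRT7, KRT19 and EPCAM, and CEACAM6 was in none. Of 11 markers of other cell types, CD68 and ACTA2 were above background in all 16 channels, DCN and GCG in none and the other 7 in some. ERBB2 was at -0.40 ± 0.12 (SD, n = 4) by probe A_23_P89249 and lower on 4 of 4 ErbB2-KD arrays, its other probe was at 0.04, and neither passed (limma adjusted p = 0.145 and 0.897). MUC4 went against its label: its 4 probes had means of 0.27 to 1.84, higher in the RNA labelled MUC4-KD, and 2 of them passed (limma adjusted p = 0.00804 and 0.0355).

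Signed values of that experiment are therefore given as labelled only, and their direction is uncertain. The study's own table of fold changes for MUC4-KD runs in the opposite direction. With the sign turned, every "higher" of MUC4-KD below becomes "lower" and the reverse, while sizes, spreads and p-values of that experiment stay as they are. Its difference from ErbB2-KD does change, and both versions are given. The channels themselves differed in spread. According to the methods each experiment had 1 pool of control clones, and in ErbB2-KD the pool NT channels had a median SD over arrays of 0.17 (log2 level, 23869 probes) and those of the clones 0.35. In the other experiment the channels labelled Mock had a median SD of 0.25 and those labelled MUC4-KD 0.15, with the larger SD in Mock for 73.0% of 25047 probes. Among the 89 histone probes the larger SD was in Mock for 68.

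The starts of the genes described first are shown from RefSeq (GRCh38.p14). They were taken because array probes of H2AJ, H2AC11, H2AC15 and H2AC17 moved together in ErbB2-KD. That of H2AC4 was lower, as labelled, in the other experiment. Each run holds up to 250 bases directly before the start of transcription, shortened where a neighbouring H2B gene starts within that window, on the strand of the gene. Capitals mark the CCAAT box, the TATAAA box and the octamer motif ATTTGCAT on either strand, and matches of TATAAA on opposite strands can overlap.
H2AJ (chr12:14774155-14774404, plus strand): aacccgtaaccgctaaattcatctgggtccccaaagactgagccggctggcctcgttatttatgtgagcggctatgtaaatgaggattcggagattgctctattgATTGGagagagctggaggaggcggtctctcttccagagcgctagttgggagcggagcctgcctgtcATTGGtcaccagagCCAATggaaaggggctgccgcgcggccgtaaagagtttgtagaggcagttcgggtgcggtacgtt
H2AC11 (chr6:27132796-27133042, plus strand): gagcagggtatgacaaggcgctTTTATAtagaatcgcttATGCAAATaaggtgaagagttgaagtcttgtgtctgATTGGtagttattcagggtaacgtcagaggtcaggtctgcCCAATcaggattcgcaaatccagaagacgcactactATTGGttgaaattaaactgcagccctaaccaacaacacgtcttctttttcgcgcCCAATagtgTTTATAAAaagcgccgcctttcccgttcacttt
H2AC15 (chr6:27838376-27838568, minus strand): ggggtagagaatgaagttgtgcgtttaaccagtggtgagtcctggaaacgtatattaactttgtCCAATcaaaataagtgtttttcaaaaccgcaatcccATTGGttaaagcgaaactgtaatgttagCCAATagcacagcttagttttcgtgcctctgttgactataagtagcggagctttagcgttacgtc
H2AC17 (chr6:27893186-27893424, minus strand): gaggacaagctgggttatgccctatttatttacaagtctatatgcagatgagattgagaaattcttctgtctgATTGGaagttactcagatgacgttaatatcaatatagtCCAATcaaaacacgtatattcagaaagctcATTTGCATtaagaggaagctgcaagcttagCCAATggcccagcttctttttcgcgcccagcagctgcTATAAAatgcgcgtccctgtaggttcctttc
H2AC4 (chr6:26033619-26033868, minus strand): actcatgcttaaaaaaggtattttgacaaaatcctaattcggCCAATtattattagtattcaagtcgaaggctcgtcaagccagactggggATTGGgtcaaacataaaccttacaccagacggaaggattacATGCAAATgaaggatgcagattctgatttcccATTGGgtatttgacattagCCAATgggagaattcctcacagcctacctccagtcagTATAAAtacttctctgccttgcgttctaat
The H2AJ window held CCAAT 3 times and neither TATAAA nor the octamer. H2AC11, H2AC17 and H2AC4 held all 3 motifs, and H2AC15 held CCAAT only. Of the 80 histone genes, 72 had a promoter in the table, and H2AC12, which also fell in ErbB2-KD, was not among them. In their full windows of 250 bases the octamer was present in 11 of 14 replication-dependent H2A genes and in 13 of 17 H2B genes, against 1 of 11 H3 genes, 0 of 12 H4 genes and 1.63% of all 35116 promoters. CCAAT was present in all 14 H2A, all 17 H2B and all 11 H3 genes and in 3 of 12 H4 genes, against 32.0% of all promoters. TATAAA was present in 40 of the 60 replication-dependent genes and in 10.7% of all promoters. Where H2A and H2B genes lie head to head their windows overlap, so these counts share matches, and they describe the letters in the windows only.

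In ErbB2-KD, the contrast that chose the genes, the lowest ratio of all 23869 probes tested belonged to H2AJ. Its probe A_23_P204277 was at -4.87, -4.88, -5.32 and -4.46 in ErbB2-KD1 to ErbB2-KD4, a mean of -4.88 ± 0.35 (SD, n = 4) or 29.5-fold lower than in pool NT. The probe A_24_P236003 was at -3.24, -2.78, -3.65 and -3.0, a mean of -3.17 ± 0.37 (SD, n = 4) or 8.98-fold lower. All 8 ratios lay far below 0, and ErbB2-KD3 (EV9) was the lowest clone by both probes. The third H2AJ probe, A_23_P432385, was above background on 3 of 4 arrays in either RNA and had a mean of -0.07, and it was above background on 0 arrays of the other experiment. In bulk RNA, fewer cells with a transcript and less of it per cell cannot be told apart. The dyes differed between clones 1 and 2 and clones 3 and 4, and the ratio of H2AJ had the same sign in both orientations.

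The replication-dependent H2A genes came next, in graded steps. H2AC11 was at -2.75, -1.78, -3.08 and -2.63, with a mean of -2.56 ± 0.55 (SD, n = 4) or 5.90-fold lower. H2AC15 was at -1.89, -1.39, -2.62 and -1.95, with a mean of -1.96 ± 0.51 (SD, n = 4). H2AC12 was at -1.27, -0.97, -1.63 and -1.65, with a mean of -1.38 ± 0.32 (SD, n = 4). In each of these genes ErbB2-KD2 (EV12) had the ratio nearest to 0, and all clones were below 0. H2AC17 was at -0.98, -1.19, -2.02 and -1.30 by probe A_24_P86389, a mean of -1.37 ± 0.46 (SD, n = 4), whereas its probe A_32_P221799 had a mean of -0.05. The probes of other H2A genes disagreed in the same way: H2AC20 was at -0.72 and -0.00, and H2AC21 at -0.59 and -0.01. All 17 tested probes of replication-dependent H2A genes had a mean at or below 0, with a median of -0.80, and 14 of them were lower on every array. Over all 23869 probes tested the median was -0.01, 12220 had a mean below 0 and 3643 were lower on every array.

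The 2 H2AJ probes and those of H2AC11, H2AC15, H2AC12 and H2AC17 were the histone probes called in ErbB2-KD (6 of 89 at a limma adjusted p under 0.05, all lower), where 1.43% of all probes tested were called, 0.884% lower and 0.549% higher. Nothing is read from that count, since this contrast chose the genes. It varied with the array left out, as did the share over all probes. Without ErbB2-KD1 0 histone probes were called (0% of all probes) and without ErbB2-KD3 1 (0.0122%). Without ErbB2-KD4 2 were called (0.125%) and without ErbB2-KD2 6 (1.88%). The mean of H2AJ probe A_23_P204277 stayed at -5.02 to -4.74 in these fits. The coding sequences of the H2A genes are close to each other and to that of H2AJ, the probe sequences are not analysed here, and how much of each signal comes from another H2A transcript was not tested.

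**Figure D1:**
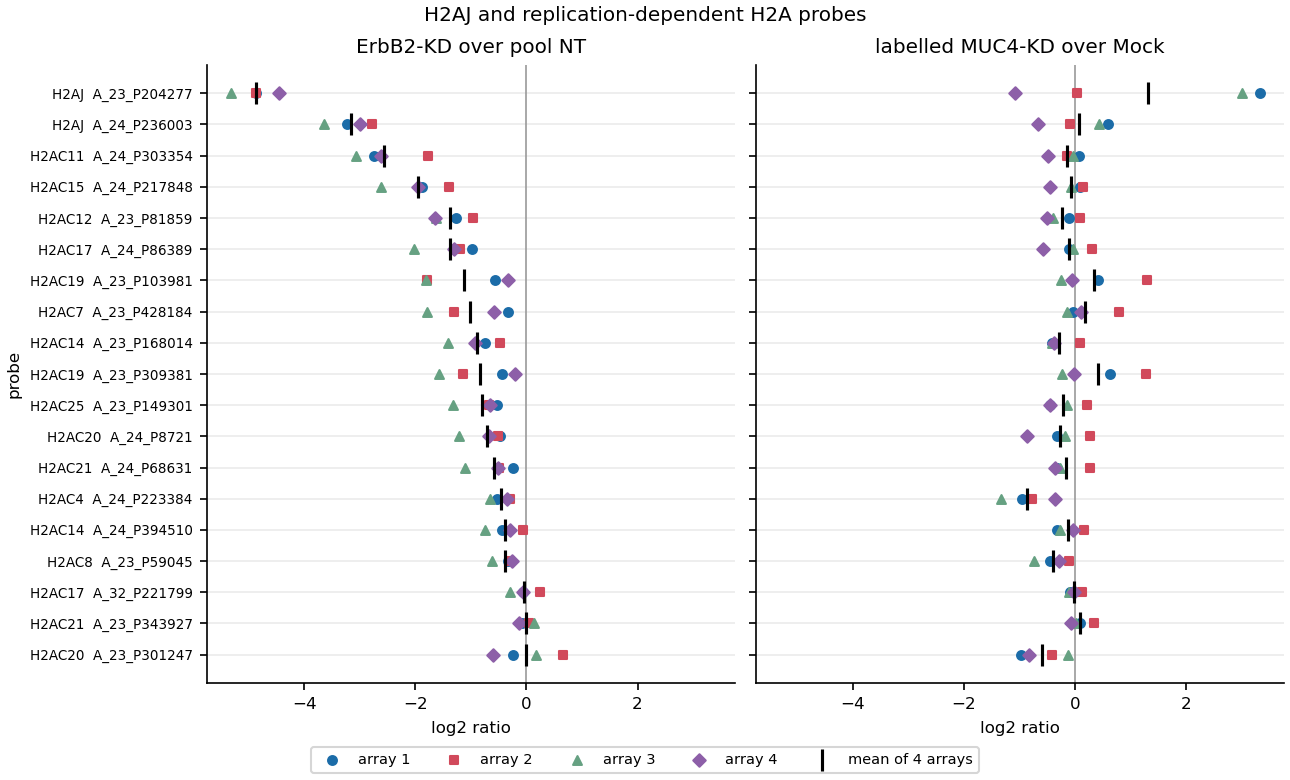
Log2 ratio (x axis) of each tested probe of H2AJ and of the replication-dependent H2A genes (rows, with probe name) on the 4 arrays of ErbB2-KD over pool NT and of labelled MUC4-KD over Mock; coloured symbols are arrays and the black bar is their mean. In ErbB2-KD the H2AJ probes lie at -4.88 and -3.17 and the H2A probes run from -2.56 to about 0, whereas in the other experiment probe A_23_P204277 of H2AJ splits into arrays 1 and 3 near 3 and arrays 2 and 4 near 0 or below.

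The level in each channel was also read. On the log2 scale of the normalized channels, probe A_23_P204277 of H2AJ was at 14.42, 14.20, 14.36 and 14.31 in pool NT and at 9.56, 9.33, 9.04 and 9.84 in the ErbB2-KD clones. In the RNA labelled MUC4-KD it was at 11.56, 11.62, 11.10 and 11.18, and in that labelled Mock at 8.23, 11.59, 8.09 and 12.24. Pool NT was therefore above each of the 12 other channels, the highest of which was 12.24. The ErbB2-KD clones lay below all channels labelled MUC4-KD. They lay above the Mock channels at 8.23 and 8.09 and below those at 11.59 and 12.24. With probe A_24_P236003 the lowest pool NT level was 13.41 against a highest level of 11.73 elsewhere, and the clones, at 9.95 to 10.63, lay below the Mock channels, at 10.89 to 11.73, as well. By this probe pool NT thus lay above, and the clones below, all channels of the other experiment, which were on other arrays. H2AC11 had a mean level of 12.44 in pool NT, 9.88 in the clones, 10.49 in labelled MUC4-KD and 10.64 in labelled Mock. H2AC15 followed with 12.36, 10.40, 10.94 and 11.01, and H2AC17 (A_24_P86389) with 12.57, 11.20, 11.41 and 11.51.

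All 4 pool NT channels exceeded the 12 others for 8 of the 89 histone probes: both of H2AJ and those of H2AC11, H2AC15, H2AC12, H2AC17, H2AC7 and H2AC19 (A_23_P103981). Over the 23081 probes tested in both experiments 1.91% had this order. For H2AC11 the lowest pool NT level was 11.99 and the highest level elsewhere 10.81, and for H2AC7 these were 12.62 and 12.56. The pool NT level is the denominator of the ratio that chose the genes, so this order is a description. An effect of the ErbB2 shRNA and a property of the clones in pool NT cannot be told apart, because these clones had no other control.

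**Figure D2:**
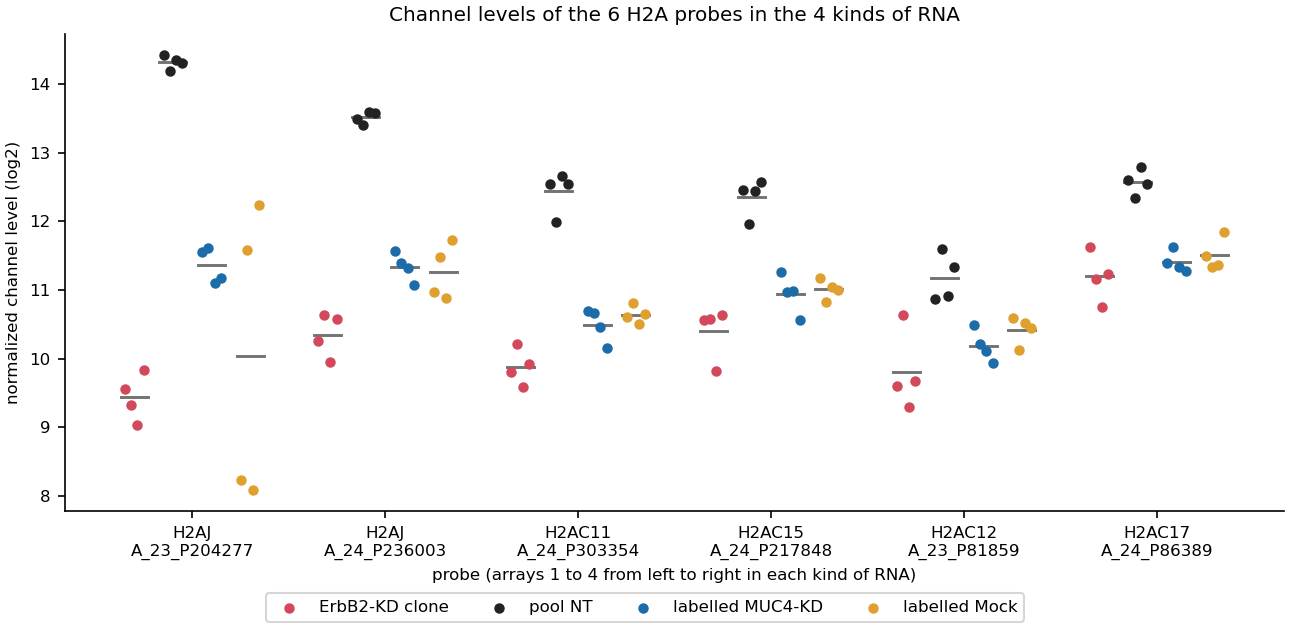
Normalized channel level on the log2 scale (y axis) of the 6 H2A probes called in ErbB2-KD (x axis) in the 4 kinds of RNA; points are arrays 1 to 4 from left to right and grey bars are means. Pool NT is highest for each probe, at 14.32 for H2AJ A_23_P204277, and the channels labelled Mock of that probe split between 8.09 and 12.24.

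The probes of replication-dependent H2B genes moved together by array. Each clone was on its own array, so clone and array cannot be told apart. The gene copies of a family are near-identical, and how far H2B, H3 and H4 probes read separate genes was not tested. All 18 tested H2B probes, for 16 genes, were below 0 in ErbB2-KD1 and in ErbB2-KD3, with medians of -0.69 and -1.13. In ErbB2-KD2 16 of the 18 were above 0, with a median of 0.26, and in ErbB2-KD4 16 were below 0, with a median of -0.15. The mean ratios lay between -0.86 and -0.16, above those of the called H2A probes. H2BC12 was at -1.65, 0.09, -1.59 and -0.14, with a mean of -0.82 ± 0.93 (SD, n = 4). H2BC21 was at -1.10, -1.01, -1.35 and 0.03 by probe A_24_P148321, a mean of -0.86 ± 0.61 (SD, n = 4), and its other tested probe, A_24_P156911, at -0.36.

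The H3 and H4 genes differed between clones in another way. In ErbB2-KD1, ErbB2-KD3 and ErbB2-KD4 the medians over 16 H3 probes were -0.19, -0.16 and -0.18, and in ErbB2-KD2 it was 0.26. The 11 H4 probes had medians of -0.19, -0.29 and -0.35 in those clones and of 0.51 in ErbB2-KD2. H4C3 was at 1.59 in ErbB2-KD2 and at -0.06, -0.30 and -0.56 in the other clones. H3C1 was at 1.01 in ErbB2-KD2, against -0.25, -0.02 and -0.20, and H3C6 at 0.87, against -0.27, 0.05 and -0.13. H4C13 and H4C4, at 1.12 and 1.04 in ErbB2-KD2, had the largest H4 means, 0.18 ± 0.65 and 0.17 ± 0.60 (SD, n = 4). The lowest H4 means were those of H4C15, -0.66 ± 0.37 (SD, n = 4), and H4C9, -0.46 ± 0.34 (SD, n = 4). The lowest H3 means, -0.15 for H3C2 (A_23_P93258) and -0.14 for H3C8, were near 0. The array of ErbB2-KD2 was also the brightest, with a median signal of 593 in the knockdown channel, where the other arrays of ErbB2-KD had 100 to 201. The part of this brightness in the H3 and H4 values was not tested.

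Of the 5 linker histone H1 probes, H1-1 had the only positive mean, 0.39 ± 0.27 (SD, n = 4), at 0.50, 0.56, 0.50 and -0.01. H1-3 was at -0.46 ± 0.21 (SD, n = 4) and H1-2 at -0.41 ± 0.51 (SD, n = 4). H1-3 was below 0 in all clones and H1-2 in ErbB2-KD1 to ErbB2-KD3. Over all 67 replication-dependent probes tested the median was -0.36 in ErbB2-KD, or -0.15 without ErbB2-KD3, and by clone it was -0.42, 0.16, -0.66 and -0.24. Genes of DNA replication and S phase, 27 in a list of their own, had medians of -0.58, 0.34, -0.15 and -0.10 in the same clones. ErbB2-KD2 was the only clone with a positive median in both sets, and the part of S phase in the histone ratios was not tested. The list of histone chaperones given below and the epithelial markers also had their highest median in ErbB2-KD2, 0.33 and 0.31. The list of histone mRNA processing, at -0.01 there, did not, nor did the markers of other cell types, at -0.32.

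**Figure D3:**
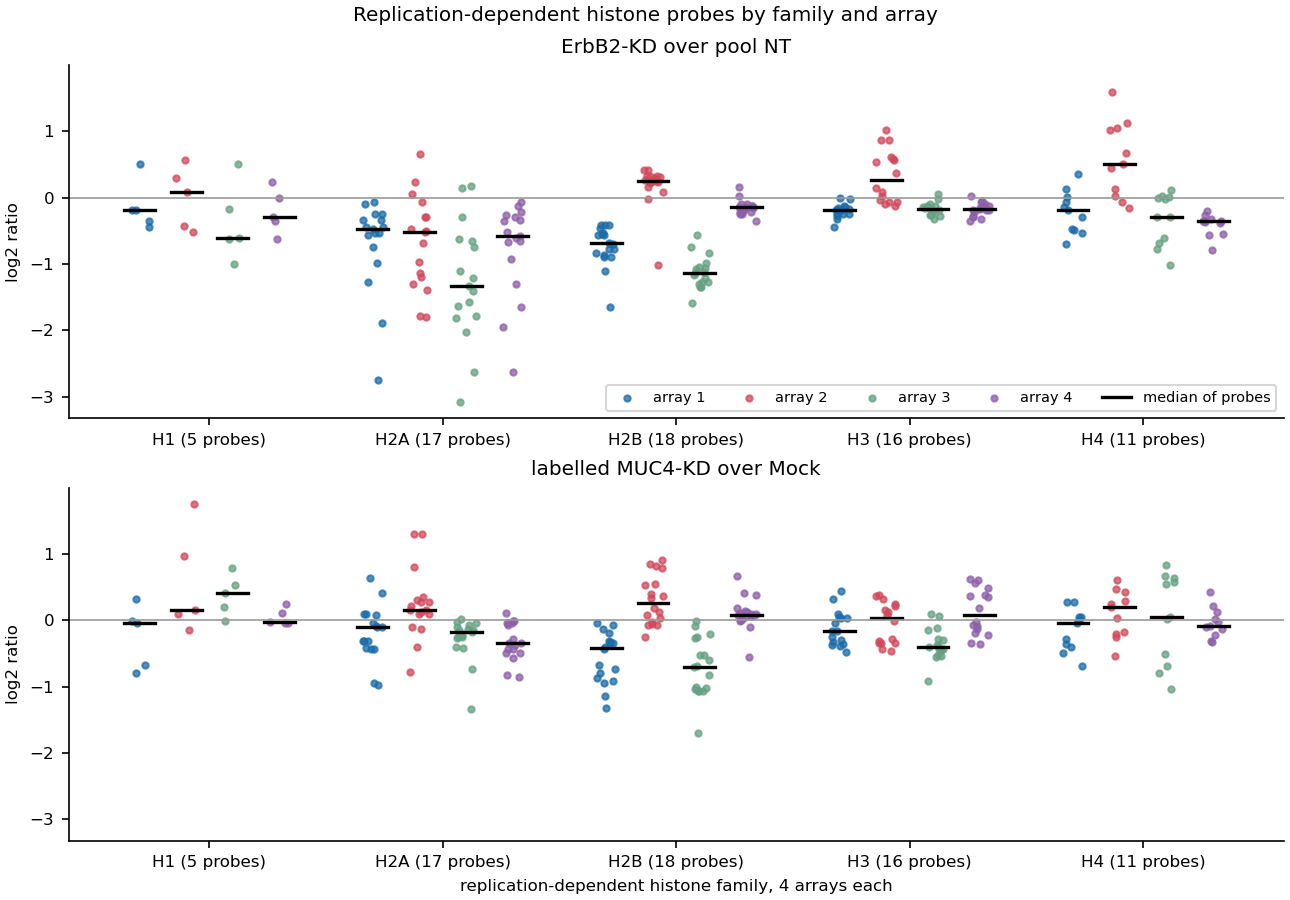
Log2 ratios (y axis) of the tested replication-dependent probes by histone family (x axis), with the 4 arrays of an experiment side by side; points are probes and black bars their median. In ErbB2-KD the H2B medians are -0.69, 0.26, -1.13 and -0.15 and the H4 median of array 2 is 0.51; in the other experiment H2B is at -0.42, 0.26, -0.70 and 0.08.

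The variants other than H2AJ were not lowered together in ErbB2-KD. H2AX, the variant that is phosphorylated at DNA breaks, was at -0.83, 1.15, -0.19 and 0.22. The 3 probes of H2AZ1, which encodes H2A.Z of gene promoters, had means between -0.02 and 0.09 and were at 0.89 to 1.1 in ErbB2-KD2. The 2 probes of its paralogue H2AZ2 had means of 0.05 and -0.02. H3-3A encodes the replacement histone H3.3, and its 5 probes were at 0.93 to 1.54 in ErbB2-KD2, with means of 0.08 to 0.21. H3-3B encodes the same protein, and its probes were at 0.11, -0.17 and -0.04. MACROH2A1, a variant with a large macro domain, was at 0.17 ± 0.36 (SD, n = 4), and MACROH2A2 at -1.90, -0.18, -0.39 and -1.28, a mean of -0.94 ± 0.80 (SD, n = 4). The linker variant H1-10 had a mean of -0.66 ± 0.54 (SD, n = 4). H1-7 and H3-5 were at -0.01 and -0.22. The median of the 20 variant probes without H2AJ was 0.05.

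Divergent gene pairs set the H2A values beside their H2B neighbours. By the promoter windows of RefSeq, 10 replication-dependent H2A genes had an H2B gene that starts on the other strand 194 to 248 bases away, head to head, so that the DNA between the starts lies before both genes. In 8 pairs both genes were tested, and the probe brightest in the control stood for a gene. The H2A gene had the lower mean in ErbB2-KD in all 8, with H2A means of -2.56 to -0.38 and H2B means of -0.47 to -0.16. H2AC11 was at -2.56 and its partner H2BC11, 248 bases away, at -0.16, the smallest H2B change of all. H2AC15 was at -1.96 and H2BC15 at -0.42, and H2AC17 was at -1.37 and H2BC17 at -0.36. In H2AC8 and H2BC8 the means were -0.38 and -0.33. The order depended on the probe where a gene had another one: the dimmer probe of H2AC14 was at -0.38 with H2BC14 at -0.47, that of H2AC17 at -0.05 with H2BC17 at -0.36, and that of H2AC20 at -0.00 with H2BC21 at -0.36, so that in these 3 pairs H2A was then the higher. It was also the higher where H2AC20, at -0.72, was set against the dimmer H2BC21 probe A_24_P148321, at -0.86. In the other experiment the H2A gene was the lower in 3 of 8 pairs, with means of -0.39 to 0.18 for H2A and -0.49 to 0.22 for H2B.

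**Figure D4:**
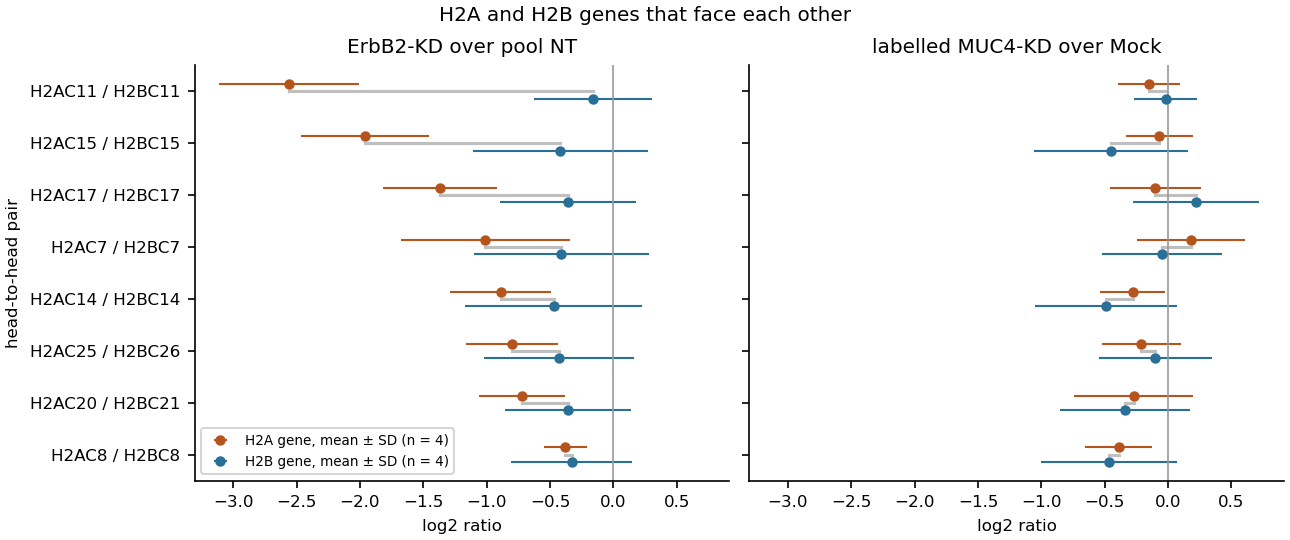
Mean log2 ratio (x axis) with its SD over 4 arrays of the H2A and the H2B gene of each head-to-head pair (rows), each by its probe brightest in the control, in both experiments; grey lines join a pair. In ErbB2-KD the H2A genes extend to -2.56 while all H2B partners stay between -0.47 and -0.16.

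The genes around H2AJ in the RefSeq order were also measured. H4C16, its nearest neighbour on one side, was not above background. WBP11, which encodes a splicing protein and lies directly on the other side, was at -0.51 ± 0.19 (SD, n = 4) in ErbB2-KD and C12orf60 at -0.29 ± 0.26. SMCO3, the third gene on that side, was at -2.34, -1.74, -2.28 and -1.35, a mean of -1.92 ± 0.47 (SD, n = 4). On the side of H4C16 the measured genes lay farther off, 7, 8 and 15 genes from H2AJ, with GUCY2C and GRIN2B not above background. PLBD1 was at -0.02, -1.79, -2.24 and -0.34, ATF7IP at 0.04 ± 0.40 and EMP1 at 1.74 ± 0.45 (SD, n = 4). SMCO3 was thus low in every clone while the genes between it and H2AJ were nearer to 0. In the RNA labelled MUC4-KD, SMCO3 was at 0.46 ± 0.35 and WBP11 at 0.56 ± 0.37 (SD, n = 4), and neither passed (limma adjusted p = 0.0814 and 0.0562). PLBD1, at -0.45, and ATF7IP, at -0.80, passed as lower and EMP1, at 0.98, as higher (limma adjusted p = 0.0470, 0.0293 and 0.00887).

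In the comparison of the RNA labelled MUC4-KD with that labelled Mock, which was not the contrast that chose the genes, H2AJ did not pass. Its probe A_23_P204277 was at 3.33, 0.03, 3.01 and -1.07 on arrays 1 to 4, with mean 1.32 and SD 2.18 (n = 4, limma adjusted p = 0.244). Arrays 1 and 3, which have opposite dyes, were high and arrays 2 and 4 were not. The probe A_24_P236003 repeated the order with smaller values, 0.60, -0.08, 0.43 and -0.66 (mean 0.07, limma adjusted p = 0.832). The split lay in the channels labelled Mock, given above, whose SD was 2.19, while the channels labelled MUC4-KD had an SD of 0.26. Without array 4 the mean of A_23_P204277 was 2.12 and without array 1 it was 0.66.

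The 4 replication-dependent H2A probes called in ErbB2-KD had means between -0.23 and -0.07 in this experiment. H2AC11 was at 0.08, -0.14, -0.04 and -0.49, and H2AC15 at 0.09, 0.15, -0.07 and -0.44. H2AC12 and H2AC17 (A_24_P86389) had means of -0.23 ± 0.27 and -0.10 ± 0.36 (SD, n = 4). None of these 4 probes passed (limma adjusted p = 0.439, 0.733, 0.264 and 0.670).

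Probes of MACROH2A2, H2BC12, H2AC4, H2AX, H4C15 and H3-3B passed, all lower in the RNA labelled MUC4-KD on 4 of 4 arrays. MACROH2A2 was at -0.68, -1.08, -1.07 and -0.76, with mean -0.90 and SD 0.21 (n = 4, limma adjusted p = 0.0107). H2BC12 was at -1.32, -0.25, -1.70 and -0.55, with mean -0.95 and SD 0.67 (n = 4, limma adjusted p = 0.0476). H2AC4 was at -0.95, -0.78, -1.34 and -0.35, with mean -0.86 and SD 0.41 (n = 4, limma adjusted p = 0.0266). H2AC4 is one of the replication-dependent H2A genes and H2BC12 an H2B gene. H2AX was at -0.58, -0.19, -0.85 and -1.09, with mean -0.68 and SD 0.39 (n = 4, limma adjusted p = 0.0407). H4C15 was at -0.69, -0.54, -1.04 and -0.31, with mean -0.64 and SD 0.31 (n = 4, limma adjusted p = 0.0341). H3-3B (A_24_P91035) was at -0.53, -0.35, -0.65 and -0.25, with mean -0.45 and SD 0.18 (n = 4, limma adjusted p = 0.0465). The other probes of H3-3B disagreed, since A_23_P152516 and A_24_P82419 were at 0.85 and 0.66 on array 4 and below 0 on the other arrays.

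These were 6 of 89 histone probes, or 6.74%, where 20.5% of all probes tested were called, 8.48% lower and 12.0% higher. As labelled, the share of lower calls was close to that of all probes, so it is no result about histone genes. None was called higher in this fit. The methods' t-test called none in either direction after adjustment, beside 0.423% of all probes. Before adjustment it called 7, all lower, beside 27.6% of all probes. At an unadjusted p under 0.05 limma gave 2 higher and 13 lower, and 10077 over all probes tested. With the log ratios of the scanner software 9 were called, 1 of them higher, beside 28.1% of all probes. The count changed with the array left out, as did the share over all probes. It was 1 without array 1 (2.33% of all probes), 0 without array 2 (3.84%) and 0 without array 3 (0.615%). Without array 4 it was 16 of 93 (14 lower and 2 higher), beside 36.1% of all probes. MACROH2A2 passed in 2 of these 4 cases (limma adjusted p of 0.0057 to 0.0828) and each of the other 5 in 1. With arrays 1 and 3 averaged and arrays 2 and 4 averaged, chosen after seeing the data because H2AJ split the arrays in this way, 3 histone probes were called lower and 14.4% of all probes.

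Among the probes that missed the threshold, H3-3A (A_24_P590537) was at 0.59 ± 0.38 (limma adjusted p = 0.0534) and H2AC20 (A_23_P301247) at -0.59 ± 0.39 (SD, n = 4, limma adjusted p = 0.0555). The 4 other H3-3A probes had means of -0.14 to 0.01. H2AZ2 was at 0.51 and 0.40 by its probes, H2AZ1 at -0.01 to 0.25 by its probes, MACROH2A1 at -0.05, H1-10 at -0.26, H1-7 at -0.03 and H3-5 at -0.40. The largest means of replication-dependent H2A probes were those of the H2AC19 probes, 0.42 ± 0.69 and 0.35 ± 0.69 (SD, n = 4), both with their highest ratio on array 2. The lowest mean after H2BC12 among the H2B probes was that of H2BC4, -0.54 ± 0.63, and the highest were those of H2BC13, 0.38 ± 0.48, and H2BC17, 0.22 ± 0.50 (SD, n = 4).

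The H2B probes moved together by array here too. All 18 were below 0 on arrays 1 and 3, with medians of -0.42 and -0.70, and the medians on arrays 2 and 4 were 0.26 and 0.08. For all 18 the channels labelled Mock had the larger SD, with a median of 0.53 against 0.15 in the channels labelled MUC4-KD. In the H3 set, H3C13, H3C3, H3C8 and H3-4 were below 0 on arrays 1 to 3 and above 0 on array 4, where H3C13 (A_23_P115375) was at 0.61 and H3C3 at 0.62. H3C1 and H3C6 went the other way, above 0 on arrays 1 to 3 and at -0.35 and -0.36 on array 4. Of the 16 H3 probes 8 were above 0 on array 4 and 8 below 0. H3C4 (A_23_P219045) was at -0.21 ± 0.52, and H3C6 and H3C11 at 0.09 ± 0.34 and 0.05 ± 0.24 (SD, n = 4). H4C13 and H4C2 had the highest H4 means, 0.33 ± 0.28 and 0.32 ± 0.29, and H4C6 was at -0.39 ± 0.30 (SD, n = 4). Of the linker genes H1-1 ranged from -0.67 to 1.75 with a mean of 0.40, H1-2 had a mean of 0.31 and H1-5 of -0.11. Over all 67 replication-dependent probes tested the median was -0.10, or -0.04 without array 3, beside 0.01 over all probes tested.

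**Figure D5:**
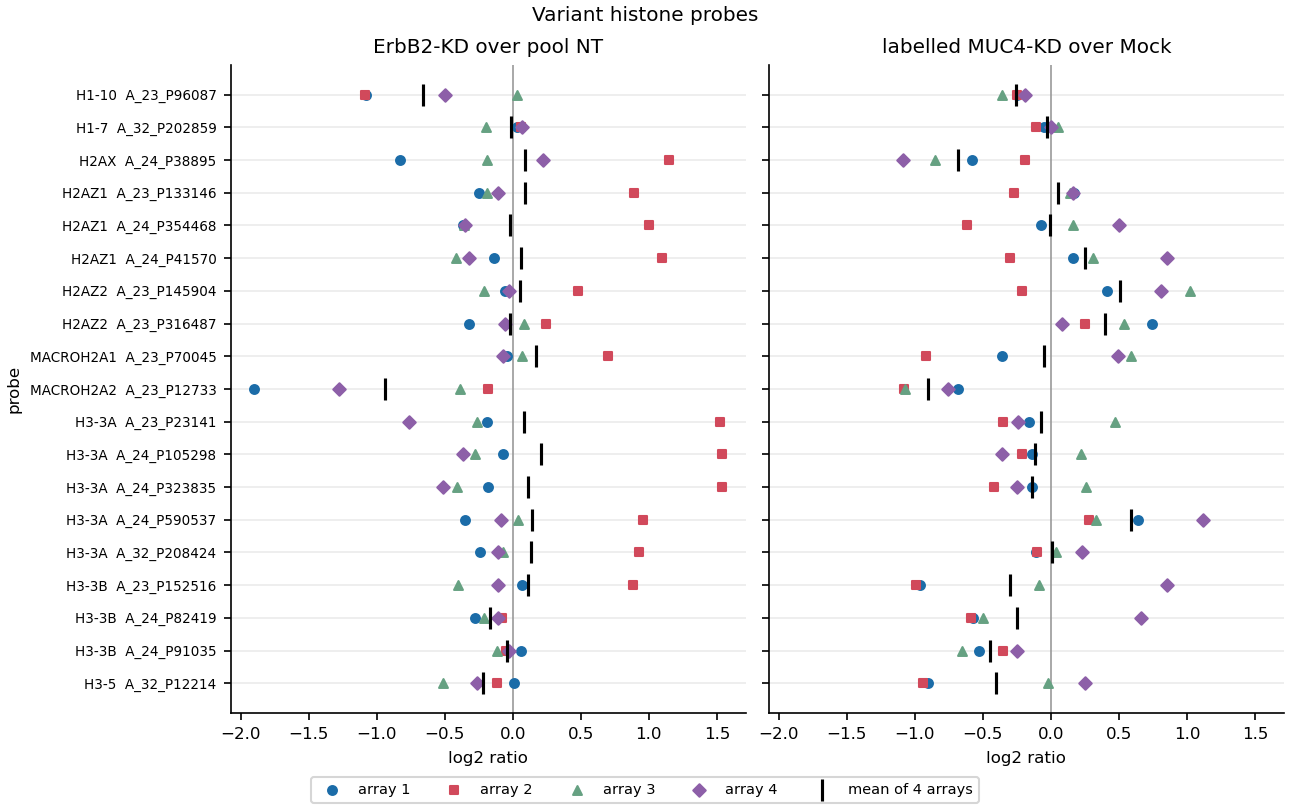
Log2 ratios (x axis) of tested variant histone probes (rows; H2AJ is plotted with the H2A genes) on the arrays of both experiments; coloured symbols are arrays and the black bar is their mean. In ErbB2-KD array 2 carries the high values of H2AX, H2AZ1 and H3-3A, up to 1.54, and in the other experiment MACROH2A2 lies between -1.08 and -0.68 on all arrays.

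Between the experiments, which share no RNA, the difference of the mean ratios passed for 6 of 89 histone probes, those of H2AJ, H2AC11, H2AC12, H2AC15 and H2AC17 that were called in ErbB2-KD, where 10.7% of all 23081 probes passed. With the sign of MUC4-KD turned, 18 histone probes passed, all lower and these 6 among them, where 18.3% of all probes passed. The others then included MACROH2A2, with a difference of -1.84, H2BC12, with -1.78, and H2AC4, with -1.32. This difference includes the ErbB2-KD ratios and is a description. H2AC11 was at -2.56 in ErbB2-KD and -0.15 in labelled MUC4-KD, and H2BC12 at -0.82 and -0.95. MACROH2A2 was at -0.94 and -0.90, and H4C15 at -0.66 and -0.64.

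Genes whose products process histone mRNA or place histones were given as lists, chosen with earlier results of these data known. Of 15 genes of histone mRNA processing and transcription, all tested, 2 were called higher and 0 lower in labelled MUC4-KD by limma, beside the 12.0% and 8.48% of all probes. They were POU2F1, which encodes the octamer-binding factor Oct-1, at 0.72 ± 0.29 (SD, n = 4, limma adjusted p = 0.0247), and CASP8AP2, the histone locus body protein FLASH, at 0.49 ± 0.10 (SD, n = 4, limma adjusted p = 0.0294). SLBP, which binds the stem-loop of histone mRNA, was at 0.28 ± 0.54 and NPAT, the coactivator of histone genes, at 0.11 ± 0.24 (SD, n = 4). The list had a median of 0.11 in labelled MUC4-KD and of -0.02 in ErbB2-KD, where SLBP was at -0.15 and NPAT at -0.07.

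Of 22 tested genes for chaperones and variant deposition, 4 were called higher and 1 lower in labelled MUC4-KD, beside 12.0% and 8.48% of all probes. The highest were HJURP at 1.23 ± 0.33 (limma adjusted p = 0.00852) and CENPA at 1.19 ± 0.21 (SD, n = 4, limma adjusted p = 0.00563), the chaperone and the histone of the centromere. DAXX, a chaperone of H3.3, was the one called lower, at -0.58 ± 0.07 (SD, n = 4, limma adjusted p = 0.0196). Of the 27 genes of DNA replication and S phase, 6 were called higher and 4 lower, beside the same shares of all probes. RRM2 and TYMS, enzymes of nucleotide synthesis, were at 1.25 ± 0.21 and 0.93 ± 0.30, and the helicase genes MCM3 and MCM2 at -0.94 ± 0.55 and -0.71 ± 0.15 (SD, n = 4; limma adjusted p = 0.00521, 0.0141, 0.0348 and 0.0154). The medians of these lists were 0.22 and 0.16 in labelled MUC4-KD and 0.00 and -0.04 in ErbB2-KD. In the marker lists KRT19, at 1.02, and ACTA2, at 0.57, were called higher in labelled MUC4-KD (limma adjusted p = 0.00585 and 0.0469), and their part in the histone values was not tested.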

How the data were processed

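RNA of CAPAN-2 clones was amplified with a linear amplification kit and hybridised to 8 2-colour arrays of 60-mer probes, which the authors scanned and read with Agilent Feature Extraction (version 10.5 by the submitters' notes). They deposited, per the file headers, the median pixel intensity and background of each spot and channel, the software's dye-normalized log10 ratio (Cy5 over Cy3), and a table of the same log10 ratios turned to labelled knockdown over control, each column with a median of 0, which was used only for that check. Because amplification primes on poly(A), transcripts without a tail may be measured less fully, which was not tested.

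In R 4.3.3 with limma 3.58.1, intensities were corrected by normexp (offset 50), outlier spots were left out, arrays were normalized by loess, ratios were turned by the dyes of the labels, and the 43376 spots were averaged to 41000 probes. The mean log2 ratio of 4 arrays was tested against 0 with lmFit and eBayes over all probes tested (Benjamini-Hochberg). Channel levels were taken after Aquantile normalization of all 8 arrays. The control counts as 1 sample, so its own spread is not in the test. Slides, 3 in all, each held arrays of both experiments. Symbols came from RefSeq through the accession (25398 probes, 15602 without one). The members and gene lists were chosen with earlier results of these data known. Named were all H2AJ probes, the tested variants, per experiment and family the 2 largest rises and falls of replication-dependent probes, the 3 measured genes on either side of H2AJ, the extremes of called list genes and the targeted genes; other probes were named after their values were seen. The values of 1 variant gene are counted in the totals and are not reported here. On simulated data with 200 changed probes and the spread of these arrays, 17% of log2 changes of 1 and 86% of 2 were recovered in ErbB2-KD (23817 probes), and 27.5% and 83.5% in MUC4-KD (24992 probes). With 4 arrays the smallest p of an exact test that flips signs is 0.125. Alternatives were another offset, the software's log ratios, median centring, other filters, slide and dye terms, an intensity trend, the methods' t-test, a replicate block and leaving out each array.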

Additional observations from a re-analysis of the deposited data

Results flagged for a closer look

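In 10 of the 74 named values one array stood apart from the other 3 by more than chance gives in about 1 of 20 groups of this size. In ErbB2-KD this was array 2 (EV12) in 6 probes. H2AZ1 was at 0.89 there (A_23_P133146, other arrays -0.25 to -0.11) and at 1.00 (A_24_P354468, -0.37 to -0.35). H3-3A was at 1.54 (A_24_P105298, -0.37 to -0.07), 1.54 (A_24_P323835, -0.51 to -0.18) and 0.93 (A_32_P208424, -0.24 to -0.07). H3C2 (A_23_P93258) was at 0.53, where the others were at -0.44 to -0.32. H1-1 was at -0.01 on array 4 and at 0.50 to 0.56 on the others.

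In labelled MUC4-KD array 4 stood apart for H3-3B (A_24_P82419), at 0.66 against -0.59 to -0.50, and for H3-4, at 0.35 against -0.46 to -0.39. Array 2 did so for H2AZ1 (A_23_P133146), at -0.27 against 0.14 to 0.17. Probes of one gene share their target, so these are fewer than 10 separate observations.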

How the results depend on the processing

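The 6 histone probes called in ErbB2-KD numbered 2 with median centring, 2 without the filter on dim probes, 0 by the methods' t-test after adjustment and 20 before it, and 0 to 6 with an array left out. In labelled MUC4-KD the 6 became 0 with median centring, 1 without the filter, 0 by the adjusted t-test, 3 with arrays averaged in pairs (chosen after seeing the data) and 0 to 16 with an array left out. For the difference of the experiments the 6 were 2 with median centring, 18 with the sign of MUC4-KD turned (chosen after seeing the data; 4220 of all probes), 14 by the unadjusted t-test, and 5 to 8 with an array left out. The replicate block gave 5; same-numbered arrays did not deviate together (correlations of -0.24 to -0.05), so the numbers do not pair the arrays. Over all probes, calls in ErbB2-KD numbered 342 and were 31 with median centring, 50 without the filter, 190 with a dye term, 515 with an intensity trend, 0 and 3176 by the t-test and 0 to 477 with an array left out; in labelled MUC4-KD 5131 became 1, 2930, 106 by the adjusted t-test and 155 to 9622, and for the difference 2479 became 82, 694 by the adjusted and 6004 by the unadjusted t-test, 783 with the replicate block and 736 to 4386. The cause of these shifts was not tested. The other alternatives kept the histone counts within 1.5 times, also without the H2AJ probes (4, 6 and 4 called), and the medians of replication-dependent probes stayed within the SD of their array medians (-0.47 to -0.15 in ErbB2-KD and -0.20 to -0.04 in labelled MUC4-KD). The slide was fitted as a random block with its correlation over all 8 arrays, 0.0139, and gave 6 in each comparison. Of the named values 1 changed sign by more than its SD: H3-3A (A_24_P105298) in labelled MUC4-KD was at 0.13 with median centring. In labelled MUC4-KD 30 alternative values of named probes lost their call and 7 gained one. In ErbB2-KD 2 values moved by more than their SD with the log ratios of the scanner software: H1-1 to 0.77 and H2AZ2 (A_23_P316487) to -0.37.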
